A study of Mus musculus with 7 samples.

Results

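H3K27ac was examined around 10 transcription factor genes of neuronal differentiation, namely Nhlh1, Nhlh2, Ebf1, Ebf2, Ebf3, Myt1, Myt1l, St18, Insm1 and Scrt1. Their regulatory regions were taken as the merged H3K27ac peaks that overlapped each gene body or the 10 kb on either side of it (mm10, GENCODE M21). This gave 53 of the 66841 merged peaks. Ebf1 held 19 of them, Nhlh1 8, Ebf2 and Ebf3 6 each, Nhlh2 and Scrt1 4 each, Insm1 3, St18 2 and Myt1 1. No merged peak fell in the window of Myt1l. Promoter peaks, those within reach of 2 kb around a transcription start of the gene, made up 16 of the 53.

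The libraries came from A2Lox mouse embryonic stem (ES) cells, here the transgenic derivative A2lox-NeuroD1, a single line in which HA-tagged murine NeuroD1 is placed under a doxycycline-inducible promoter. The cells were maintained in medium with LIF and passaged off their fibroblast feeders before the experiment. H3K27ac ChIP-seq was done without doxycycline (0 h, uninduced) and after 12 h and 48 h in 500 ng/ml doxycycline, with 2 replicates (R1 and R2) per time point. Nothing in the labels says that R1 and R2 were separate cultures, so the p-values measure the spread between these libraries, which may be technical.

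Each library held 6283103 to 8112895 reads in peaks in the deposited counts. A minimum of 10 reads in 2 libraries was met by 50 of the 53 peaks. Levels are given below as scaled counts, meaning reads brought to the mean library total, with R1 before R2. Changes are log2 fold changes ± SE from the quasi-likelihood test of edgeR, with p-values adjusted (Benjamini-Hochberg) over all peaks, or over all gene loci where a locus is named. "Gained" and "lost" are used only for an adjusted p under 0.05. As a check of cell identity, the promoter peaks of 8 ES cell markers were present and summed to 21000.5 to 21430.2 scaled counts at 0 h, 22991.5 to 23071.1 at 12 h and 13802.9 to 17493.2 at 48 h. Neuron markers had a promoter peak in 6 of 8 cases (none for Dcx and Snap25), with sums of 611.4 to 659.8, 490.1 to 499.4 and 683.6 to 948.1. Fibroblast markers had one in 4 of 10 cases (none for Col1a2, Col3a1, Thy1, Prrx1, Postn and Dcn), with sums of 84.9 to 93.4, 69.8 to 76.4 and 96.3 to 209.8. Over whole loci, 6 of the 10 fibroblast markers had a peak, of which 2 gained H3K27ac at 48 h (Pdgfrb by 1.88 and Col1a2 by 1.38 on the log2 scale) and 2 at 12 h (Col1a2 and Col3a1), with a median of 0.72 at 48 h. Col1a1 was lost at 12 h (-0.44). From 12 h to 48 h 2 fibroblast loci gained (Pdgfrb and Twist1) and Col3a1 was lost (-1.29). Of 6 neuron marker loci 3 gained at 48 h (Map2, Rbfox3 and Tubb3), with a median of 0.60. Elavl4, Stmn2 and Elavl3 were not called at 48 h (0.28, -0.09 and -0.58). At 12 h 2 neuron loci gained (Map2 and Elavl4) and 1 was lost (Elavl3, -1.06). Whether more cells carried the mark or each cell carried more of it cannot be told apart in these bulk samples, and the part of other cell types in the changes was not tested.

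NeuroD1 is a basic helix-loop-helix (bHLH) factor that binds E-boxes and opens a cascade of further transcription factors in newborn neurons. Nhlh1 and Nhlh2 are bHLH factors of this cascade, and the Ebf genes encode COE-type helix-loop-helix factors linked to neuronal differentiation and migration. Myt1, Myt1l and St18 form a family of CCHC zinc finger factors, of which Myt1l is known for silencing non-neuronal genes, while Insm1 and Scrt1 are SNAG-domain zinc finger repressors. H3K27ac marks active promoters and enhancers.

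Sequences are shown for 6 regions that gained H3K27ac at 48 h, 1 per gene, because E-boxes are the sites that bHLH factors bind. Each is a 240 base stretch at the gained peak with the smallest p of that gene whose stretch overlaps no exon. It is centred on its CAGATG and CAGCTG sites where it has them, and can reach past the edge of the peak. They are given on the forward strand of mm10, with CAGATG (written CATCTG where it lies on the reverse strand) and CAGCTG in capitals.
Nhlh1, 4 kb upstream of the gene, chr1:172061338-172061577: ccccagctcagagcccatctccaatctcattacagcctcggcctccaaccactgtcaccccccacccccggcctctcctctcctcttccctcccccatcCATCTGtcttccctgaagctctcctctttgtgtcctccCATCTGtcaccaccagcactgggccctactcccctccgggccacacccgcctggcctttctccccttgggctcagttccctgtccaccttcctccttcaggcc
Nhlh2, 14.5 kb downstream of the start, chr3:102024517-102024756: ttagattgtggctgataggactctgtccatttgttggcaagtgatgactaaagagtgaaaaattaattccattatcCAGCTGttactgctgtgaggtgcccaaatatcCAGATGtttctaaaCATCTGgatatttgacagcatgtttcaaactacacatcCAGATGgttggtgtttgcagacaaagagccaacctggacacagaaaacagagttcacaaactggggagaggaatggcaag
Ebf1, intron, chr11:44696970-44697209: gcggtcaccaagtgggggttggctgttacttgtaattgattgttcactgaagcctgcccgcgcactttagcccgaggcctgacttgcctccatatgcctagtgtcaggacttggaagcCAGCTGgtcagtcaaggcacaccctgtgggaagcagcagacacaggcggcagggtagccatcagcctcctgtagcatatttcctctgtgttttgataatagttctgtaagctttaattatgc
Ebf2, intron, chr14:67242083-67242322: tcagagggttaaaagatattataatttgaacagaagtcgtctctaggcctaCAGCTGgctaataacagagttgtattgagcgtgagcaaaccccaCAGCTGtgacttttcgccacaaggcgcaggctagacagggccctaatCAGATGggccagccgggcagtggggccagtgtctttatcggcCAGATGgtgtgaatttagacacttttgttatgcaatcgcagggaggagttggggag
Ebf3, intron, chr7:137229031-137229270: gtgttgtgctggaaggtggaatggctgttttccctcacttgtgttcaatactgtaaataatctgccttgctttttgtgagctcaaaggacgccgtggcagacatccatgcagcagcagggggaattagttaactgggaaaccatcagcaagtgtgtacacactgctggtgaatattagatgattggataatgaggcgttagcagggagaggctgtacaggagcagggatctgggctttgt
Insm1, downstream of the gene, chr2:146226087-146226326: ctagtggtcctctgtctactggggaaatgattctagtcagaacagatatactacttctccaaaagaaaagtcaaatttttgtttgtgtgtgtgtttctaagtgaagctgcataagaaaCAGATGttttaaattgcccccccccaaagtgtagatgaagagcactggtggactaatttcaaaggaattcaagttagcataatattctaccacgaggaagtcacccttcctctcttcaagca
The Ebf2 stretch holds 2 CAGATG and 2 CAGCTG sites, the Nhlh2 stretch 3 and 1, and the Nhlh1 stretch 2 CAGATG sites. The Ebf1 stretch has a single CAGCTG and the Insm1 stretch a single CAGATG. The Ebf3 stretch has neither, although it gained acetylation as well, but it holds 2 other E-boxes of the general form CANNTG (N for any base). That general form occurred within 250 bp of the centre in 88.7% of the 53 peaks and in 89.2% of all merged peaks.

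Over the 53 peaks, CAGATG occurred within 250 bp of the centre in 22 (41.5%), compared with 29.3% of all merged peaks. CAGCTG occurred in 13 (24.5%), compared with 25.2% of all peaks. Among peaks with CAGATG 12 of 22 gained H3K27ac at 48 h, and among those without it 18 of 31 did. In all merged peaks the corresponding shares were 12.4% and 7.0%. These counts were of letters only, and no difference between the shares was tested. For the promoters, 13 RefSeq sequences (GRCm38.p6) were matched for 6 of the 10 genes, some of which have several. The 250 bases before the start held CAGATG in 5 of the 13 (of Nhlh1, Nhlh2 and Myt1l) and CAGCTG in 1 (of Myt1l), against 14.4% and 13% of all 32851 RefSeq promoters. The Nhlh1 promoter, which lies partly in a peak that gained H3K27ac, is shown 5′ to 3′ on its own reverse strand with the CAGATG site in capitals.
Nhlh1 promoter, chr1:172057597-172057846: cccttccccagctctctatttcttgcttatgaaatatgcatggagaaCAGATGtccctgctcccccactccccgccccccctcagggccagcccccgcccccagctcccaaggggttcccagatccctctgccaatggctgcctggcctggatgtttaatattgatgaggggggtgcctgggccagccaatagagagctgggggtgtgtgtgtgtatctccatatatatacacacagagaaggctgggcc

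At 48 h after NeuroD1 induction 30 of the 53 peaks (56.6%) had gained H3K27ac relative to 0 h and none had lost it. Of all merged peaks 8.56% gained and 5.45% lost the mark in that comparison. The median change was 1.47 on the log2 scale, compared with -0.04 over all peaks, and 49 of 53 changes were positive. It was 1.47 as well with the 1 peak that had no reads at 0 h put at its lower bound. At 12 h 15 peaks (28.3%) had gained and 1 had lost H3K27ac, against 9.93% and 6.03% of all peaks, with a median of 0.53 against -0.08. From 12 h to 48 h a further gain was called at 25 peaks (47.2%) and no loss, against 10.7% and 8.43% of all peaks, with a median of 0.97 against -0.03. At an unadjusted p under 0.05, edgeR had no member peak lower at 48 h than at 0 h or 12 h, and DESeq2 called none lost. The comparisons share libraries and are therefore not independent of each other.

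The number of calls depended on single libraries more than the direction did. In each fit named here with a library left out, the calls over all merged peaks fell as well, so the drop is not particular to these regions. Without 0 h R2, 12 peaks were called at 48 h vs 0 h. Its omission left 3 at 12 h vs 0 h, where the other 0 h and 12 h libraries left out in turn gave 6 to 9. Between 12 h and 48 h, 5 peaks were called without 12 h R1, 1 without 12 h R2, 13 without 48 h R1 and 16 without either 0 h library. For all merged peaks scaled with TMM factors, the calls at 12 h vs 0 h were 7572 gained and 2637 lost in place of 6638 and 4028.

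In terms of library order, both 48 h libraries lay above both 0 h libraries at 39 peaks (73.6%; 23.9% of all peaks), and both 12 h libraries did at 31 (58.5%; 30.7% of all peaks). In 22 peaks (41.5%), both 12 h values lay above both 0 h values and below both 48 h values, an order found in 4.0% of all peaks. Promoter peaks and the rest both took part, with 11 of 16 promoter peaks and 19 of 37 others gained at 48 h, and median changes of 2.08 and 1.30. Of all 16416 promoter peaks 4.9% gained at 48 h and of all 50425 others 9.8%, with medians of 0.06 and -0.11. From 12 h to 48 h 10 member promoter peaks and 15 others gained, beside 27.4% of all promoter peaks (median 0.44) and 5.3% of all others (median -0.20). The differences between these medians were not tested.

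**Figure D1:**
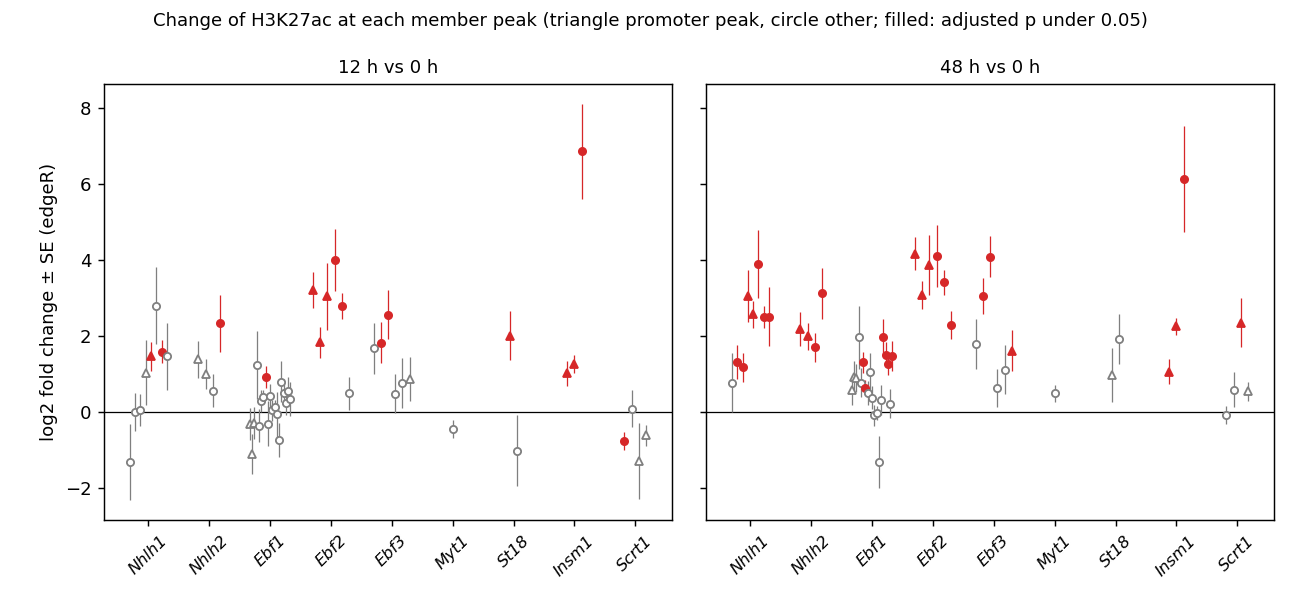
Log2 fold change ± SE (edgeR) of each of the 53 peaks, by gene and in genome order, at 12 h vs 0 h (left) and 48 h vs 0 h (right), with triangles for promoter peaks and filled red symbols for an adjusted p under 0.05. All 6 Ebf2 peaks and 7 of 8 Nhlh1 peaks were gained at 48 h, whereas the 19 Ebf1 peaks spread around smaller values; the highest Insm1 point is a peak with no reads at 0 h, so its fitted value is not a measured fold.

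Summed over each locus, the reads gave 9 loci with a value, all of them with a positive log2 fold change at 48 h vs 0 h. Of these, 6 gained H3K27ac at 48 h (Nhlh1, Nhlh2, Ebf1, Ebf2, Ebf3 and Insm1) and none lost it, whereas 6.46% of all 16152 loci gained and 5.36% lost it. The median was 2.04, compared with 0.03 over all loci. At 12 h 5 loci had gained and none had lost H3K27ac (all loci 7.13% and 30.2%), and from 12 h to 48 h 7 gained and none lost it (all loci 38.2% and 7.72%). Locus values scaled by library total were shifted as a whole in these last 2 comparisons, with a median over all loci of -0.29 for 12 h vs 0 h and 0.32 for 48 h vs 12 h, which TMM factors brought to -0.02 and 0.03. The members' medians of 1.07 and 0.91 are to be read against those shifts. With TMM factors 1879 loci gained and 684 lost at 12 h (1152 and 4876 by library total), and 1796 gained and 2481 lost between 12 h and 48 h (6173 and 1247). Of the member loci, 5 in place of 7 gained between 12 h and 48 h with TMM factors, where Nhlh2 (0.67) and Ebf3 (0.54) were no longer called.

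Here too single libraries decided calls at the adjusted threshold. At 48 h vs 0 h, 3 member loci were called without 0 h R2, beside 255 of all 16152 loci. At 12 h vs 0 h none was called by edgeR without 0 h R2 (4 at an unadjusted p under 0.05), 1 without 12 h R1 and 2 without 0 h R1 or 12 h R2, and the calls over all loci fell to 80 to 356 in these fits. Without 48 h R1, 6 member loci gained and 2 lost H3K27ac at 12 h, and without 48 h R2 7 gained and 2 lost it, in fits that called 10175 and 10183 of all loci, most of them lost. Between 12 h and 48 h none was called without either 12 h library (7 at an unadjusted p under 0.05 in both cases), with 155 and 81 called over all loci. DESeq2 called 2 member loci between 12 h and 48 h with all 6 libraries, beside 3074 of all loci. The value of the Myt1 window rests wholly on a peak at the promoter of Pcmtd2, and that of Scrt1 partly on a peak at the promoter of Dgat1. Without promoter peaks of other genes 8 loci had a value, of which 5 gained at 12 h and 6 at 48 h, with 6 gained between 12 h and 48 h.

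**Figure D2:**
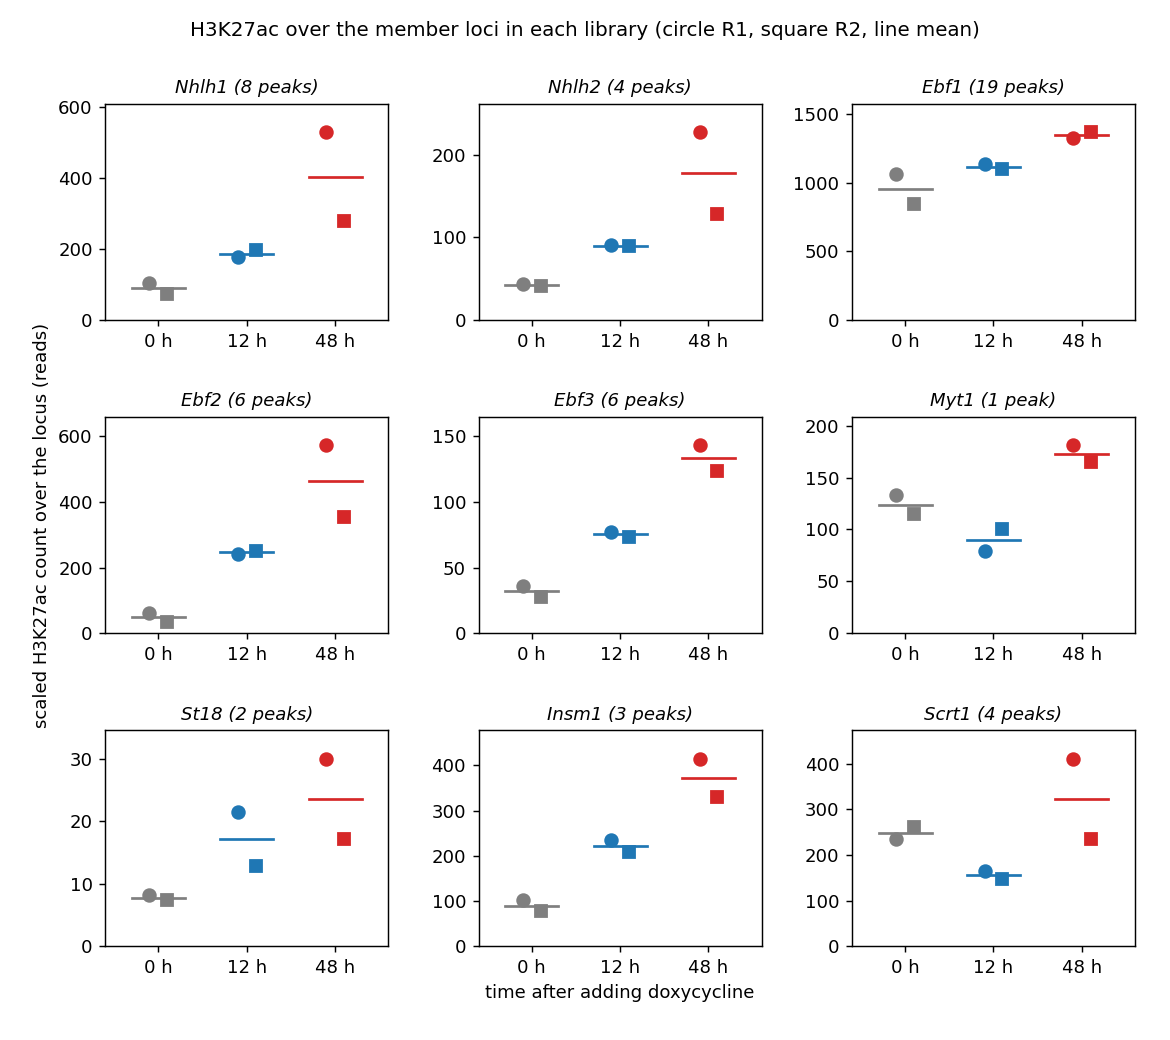
Scaled H3K27ac counts summed over each locus (gene body and 10 kb on each side; reads, linear axis from 0, a separate axis per gene) in every library, with circles for R1, squares for R2 and a line for the mean of 2. At Nhlh1, Nhlh2, Ebf1, Ebf2, Ebf3 and Insm1 the values ascended from 0 h through 12 h to 48 h without overlap, an order not counted over all loci. The log2 rise of Ebf1 from 12 h to 48 h (0.27) was below the median of 0.32 over all loci. It turned negative with TMM factors and DESeq2 (down to -0.03). Scrt1 and the Myt1 window, which holds only the Pcmtd2 promoter peak, were lowest at 12 h. R1 was above R2 at 48 h for every locus but Ebf1.

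Among the bHLH genes, Nhlh1 (ENSMUSG00000051251.3, chr1:172052292-172057573, reverse strand), which encodes a factor of newborn neurons, had scaled counts over its locus of 103.6 and 74.3 at 0 h. They reached 176.9 and 195.9 at 12 h, then 528.5 and 277.7 at 48 h. The time points did not overlap, but the 48 h replicates stood far apart. The change was 1.07 ± 0.30 after 12 h (adjusted p = 0.022) and 2.17 ± 0.29 after 48 h (adjusted p = 0.001). Of its 8 peaks, 7 gained H3K27ac at 48 h.

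The largest Nhlh1 peak lay 4 kb upstream of the gene (chr1:172060551-172062592) and held the E-boxes shown above. Its scaled counts were 35.9 and 23.4 at 0 h, 85.8 and 92.0 at 12 h, then 213.2 and 124.7 at 48 h. The gain was called at both times, with changes of 1.58 ± 0.31 (adjusted p = 0.0012) and then 2.49 ± 0.30 (adjusted p = 2.7e-06). The promoter peak just upstream of the start (chr1:172057741-172059318) followed it, with 18.5 and 12.7, then 36.5 and 48.8, then 118.8 and 68.8. Its changes were 1.45 ± 0.38 after 12 h (adjusted p = 0.011) and 2.56 ± 0.35 after 48 h (adjusted p = 1.4e-05). By contrast, a pair of peaks 8.2 and 9.1 kb downstream of the start was not called at 12 h and gained between 12 h and 48 h. The peak at chr1:172048857-172049795 had 27.7 and 15.9 at 0 h, 20.4 and 24.8 at 12 h, then 69.9 and 30.1 at 48 h, a change of 0.05 ± 0.42 after 12 h (adjusted p = 0.94) and 1.16 ± 0.39 after 48 h (adjusted p = 0.0453). A second promoter peak (chr1:172056944-172057418), centred in an intron 0.4 kb downstream of the start, held 3 CAGATG sites. Its scaled counts were 4.1 and 1.1, then 4.3 and 6.4, then 33.3 and 12.9. It was called at 48 h (3.05 ± 0.69, adjusted p = 0.0036) and not at 12 h (1.02 ± 0.86, adjusted p = 0.42). A small upstream peak (chr1:172059965-172060372) held 2 reads in all at 0 h and 34 at 48 h, a ratio of 15.8 with a 95% counting interval of 4.0 to 135.6.

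Nhlh2 (ENSMUSG00000048540.8, chr3:102010076-102015492, forward strand), the paralogue of Nhlh1, showed the same course at a lower level, with locus counts of 44.1 and 41.4, then 91.1 and 89.2, then 227.6 and 129.0. Replicates were almost equal at 0 h and 12 h and apart at 48 h. The changes were 1.07 ± 0.30 after 12 h (adjusted p = 0.022) and 2.05 ± 0.29 after 48 h (adjusted p = 0.0015). All 4 of its peaks gained H3K27ac at 48 h. The promoter peak, centred in an exon (chr3:102012093-102013394) had 19.5 and 22.3, then 42.9 and 40.5, then 118.8 and 49.9, and gained at 48 h (1.98 ± 0.36, adjusted p = 0.00051). At 12 h vs 0 h it was not called (0.99 ± 0.39, adjusted p = 0.081), although it was with the replicate block, the GC offset (1.36, adjusted p = 0.0013), the 4 libraries compared or either 48 h library left out. The Nhlh2 peak that was called at 12 h was the downstream one with 3 CAGATG sites and 1 CAGCTG site (chr3:102024410-102024827). It had 1.0 and 3.2, then 12.9 and 9.2, then 12.2 and 24.9. Its change at 12 h was 2.32 ± 0.75 (adjusted p = 0.036), and it was the only peak of the pair of genes in which 48 h R2 lay above R1.

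The Ebf genes differed in their H3K27ac level before induction. Ebf2 (ENSMUSG00000022053.13, chr14:67233292-67430918, forward strand) had locus counts of 60.5 and 35.0 at 0 h, 242.3 and 249.3 at 12 h, then 571.8 and 353.4 at 48 h. Its log2 fold changes were the largest of the 9 loci at both times, 2.36 ± 0.29 after 12 h (adjusted p = 0.00097) and 3.26 ± 0.28 after 48 h (adjusted p = 0.00011). All 6 peaks gained at 48 h, and 5 of them had gained at 12 h.

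The intronic Ebf2 peak 9 kb into the gene (chr14:67241151-67243470) had 2 CAGATG and 2 CAGCTG sites near its centre. It rose from 23.6 and 9.6 to 109.4 and 121.4 at 12 h and 204.3 and 150.5 at 48 h. It gained 2.78 ± 0.33 (adjusted p = 2.7e-06) and then 3.40 ± 0.32 (adjusted p = 1e-07), the smallest adjusted p of the 53 peaks at 48 h. The promoter peak (chr14:67234692-67236281) rose from 15.4 and 10.6 through 40.7 and 51.5 to 145.4 and 75.7, a change of 3.06 ± 0.37 after 48 h (adjusted p = 2.5e-06). A second promoter peak over the first exon (chr14:67233344-67234435) rose from 3.1 and 5.3 to 45 and 34.0 and then 96.6 and 58.5, with changes of 3.20 ± 0.48 (adjusted p = 6e-05) and then 4.16 ± 0.44 (adjusted p = 5e-07). Neighbouring small peaks began near the floor. That at chr14:67237233-67237767 held 2 reads in all at 0 h and 37 at 12 h, a ratio of 17.6 (95% counting interval 4.5 to 150.4), and 40 at 48 h. That at chr14:67236605-67236925 went from 2 reads to 19 and 34, ratios of 9.0 (2.2 to 79.8) and 15.8 (4.0 to 135.6). The late exception was a peak 111 kb into the gene (chr14:67343890-67344798), with 15.4 and 8.5, then 16.1 and 17.5, then 72.2 and 46.4. It changed by 0.48 ± 0.44 after 12 h (adjusted p = 0.47) and 2.28 ± 0.38 after 48 h (adjusted p = 0.00016), and its rise from 12 h to 48 h was 1.80 ± 0.35 (adjusted p = 0.0014).

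Ebf3 (ENSMUSG00000010476.14, chr7:137193673-137314445, reverse strand) had locus counts of 35.9 and 27.6, then 77.2 and 73.6, then 143.2 and 123.8. The replicates stayed close at each time, and the changes were 1.24 ± 0.26 (adjusted p = 0.0099) and then 2.06 ± 0.25 (adjusted p = 0.00055). The strongest gains were in a pair of intronic peaks 85 to 86 kb into the gene. The peak at chr7:137228863-137229439 went from 2.1 and 2.1 to 10.7 and 14.7 and then 36.6 and 37.8, with changes of 2.55 ± 0.64 (adjusted p = 0.0082) and then 4.08 ± 0.53 (adjusted p = 8.7e-06). Its neighbour at chr7:137228165-137228762 went from 5.1 and 3.2 to 17.2 and 12.9 and then 31.1 and 38.7, with 1.81 ± 0.54 (adjusted p = 0.026) and then 3.04 ± 0.48 (adjusted p = 9.1e-05). The promoter peak (chr7:137313331-137313800) was lower, with 4.1 and 8.5, then 11.8 and 11, then 25.5 and 13.8. Its call at 48 h (1.60 ± 0.54, adjusted p = 0.0468) was lost with DESeq2 and without any 1 of 5 libraries, with adjusted p up to 0.31 over the alternatives.

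Ebf1 (ENSMUSG00000057098.14, chr11:44617317-45008091, forward strand) is known best from B cell development. Before induction its locus held more H3K27ac reads than those of Ebf2 and Ebf3, over 19 peaks beside 6 in each of these. Locus counts were 1063.2 and 845.9 at 0 h, 1135.5 and 1104.8 at 12 h, then 1327.9 and 1370.6 at 48 h. The change was 0.50 ± 0.11 after 48 h (adjusted p = 0.018) and 0.23 ± 0.12 after 12 h (adjusted p = 0.13). A gain at 12 h was called with TMM factors, DESeq2 or the 4 libraries compared, and the change reached 0.51 over the alternatives. The median over all loci at 12 h was -0.29 by library total and -0.02 with TMM factors. The call at 48 h was lost without 0 h R2 and without either 12 h library (adjusted p up to 0.26 over the alternatives). Of its 19 peaks 6 gained at 48 h and 1 at 12 h.

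These Ebf1 peaks took different courses. The highest, in an intron 144 kb from the start (chr11:44759867-44763161), had 333.5 and 291.9, then 321.7 and 357.8, then 285.3 and 321.6. Its values overlapped between times, with a change at 48 h of -0.04 ± 0.18 (adjusted p = 0.91). The rising peak with the smallest p (chr11:44696324-44697457) had 38.0 and 37.1, then 50.4 and 41.4, then 107.7 and 79.1, a change of 1.30 ± 0.28 after 48 h (adjusted p = 0.0023; 0.079 without 0 h R2). Further gains lay 216 to 225 kb into the gene. There the peak at chr11:44832853-44833356 rose from 6.2 and 6.4 to 25.5 and 24.1 at 48 h (1.96 ± 0.47, adjusted p = 0.0066), and that at chr11:44841020-44841690 rose from 21.6 and 14.9 to 52.2 and 51.6 (1.5 ± 0.33, adjusted p = 0.0029). In both, the 48 h replicates were close to equal. The Ebf1 peak gained at 12 h (chr11:44709312-44710460), in an intron 92.6 kb from the start, had 60.5 and 31.8, then 85.8 and 88.3, then 50.0 and 79.1, with changes of 0.91 ± 0.30 after 12 h (adjusted p = 0.0413) and 0.49 ± 0.31 after 48 h (adjusted p = 0.32). The 3 promoter peaks were not called at 12 h or 48 h vs 0 h. The largest of them (chr11:44617888-44618715) had 34.9 and 25.5, then 17.2 and 31.3, then 79.9 and 34.4, a change of 0.89 ± 0.37 after 48 h (adjusted p = 0.12).

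Per kilobase, the mean scaled count of the largest promoter peak at 0 h was 36.5 for Ebf1, 13.4 for Ebf3, 9.9 for Nhlh1 and 8.2 for Ebf2. At 48 h it was 69.0 for Ebf1 and 69.5 for Ebf2, then 59.4 for Nhlh1 and 41.8 for Ebf3. Thus Ebf2, the lowest of these promoters before induction, reached the mean level of Ebf1, although the 48 h replicates of both promoters were apart by more than this difference.

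**Figure D3:**
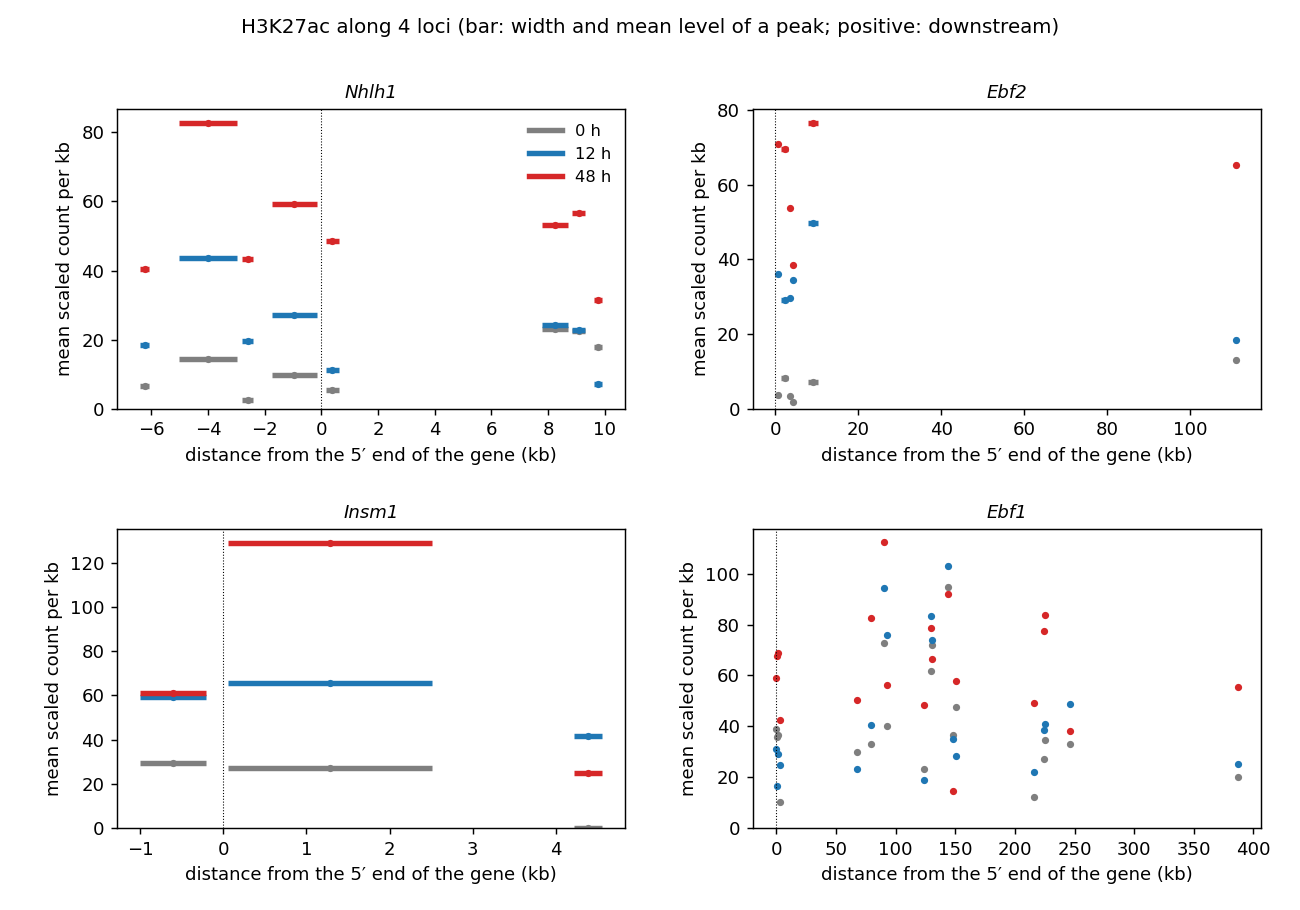
Mean scaled H3K27ac count per kb (linear axis from 0) at each peak of Nhlh1, Ebf2, Insm1 and Ebf1 against the distance of the peak from the 5′ end of the gene (kb, positive downstream), in grey for 0 h, blue for 12 h and red for 48 h, with bars as wide as the peak. At Ebf2 the 0 h values lie at the bottom and rise at both steps near the start, while the peak 111 kb in rises between 12 h and 48 h; at Ebf1 several intronic peaks stand high at 0 h.

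Among the zinc finger repressors, Insm1 (ENSMUSG00000068154.5, chr2:146221921-146225020, forward strand), which acts in neuronal and endocrine progenitors, gained at all 3 of its peaks at both times. Locus counts were 102.6 and 77.5, then 234.8 and 209.7, then 415.2 and 330.2. The time points were well apart, with changes of 1.30 ± 0.20 after 12 h (adjusted p = 0.0034) and 2.04 ± 0.20 after 48 h (adjusted p = 0.00017). The peak over its single exon (chr2:146221984-146224430) carried most of this, with 71.8 and 61.6, then 176.9 and 144.4, then 362.0 and 269.1. It gained 1.26 ± 0.24 (adjusted p = 0.0007) and then 2.24 ± 0.23 (adjusted p = 3.2e-07). The 3 peaks differed in time course. The upstream promoter peak (chr2:146220922-146221717) reached 44.0 and 50.6 at 12 h from 30.8 and 15.9, and was at 46.6 and 50.7 at 48 h, with a change of 0.04 ± 0.30 between the later times (adjusted p = 0.94). The downstream peak (chr2:146226137-146226479) had no reads in either 0 h library, 13.9 and 14.7 at 12 h, then 6.7 and 10.3 at 48 h. Against a floor of 3 reads over both 0 h libraries it stood at least 9.2-fold higher after 12 h, and after 48 h at least 5.6-fold higher, with adjusted p = 0.0007 and 0.0041.

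Scrt1 (ENSMUSG00000048385.9, chr15:76516203-76522499, reverse strand), a Snail-family repressor found in neurons, had no called change over its locus against 0 h. Locus counts were 235.0 and 261.1 at 0 h, 165.1 and 148.1 at 12 h, then 410.8 and 234.7 at 48 h. The change at 12 h was -0.66 ± 0.24 (adjusted p = 0.0502), beside a median of -0.29 over all loci. It was -0.39 with TMM factors, -0.18 with the GC offset and -0.23 over the gene body alone (adjusted p up to 0.78), while a loss was called with the replicate block (adjusted p = 0.033), with the 4 libraries compared and without either 48 h library. The value at 48 h overlapped 0 h (0.37 ± 0.23, adjusted p = 0.37). Over the alternatives the change of the locus at 48 h ranged from -0.08, without 48 h R1, to 1.41. With the GC offset a gain at 48 h was called at Scrt1, as at all 9 member loci. That fit called 1961 gained and 1929 lost of all 16152 loci. The peak of the highest level (chr15:76511167-76512548) lay 10.6 kb downstream, at the promoter of Dgat1, and was the only one of the 53 called lost at 12 h. It had 112.9 and 139.0, then 75.1 and 71.8, then 136.6 and 101.5. The loss (-0.78 ± 0.24, adjusted p = 0.032) was not called with TMM factors, DESeq2 or the GC offset. Nor was it called with any 1 of the 4 compared libraries left out. Over the alternatives the change ranged from -0.92 to -0.38. The main Scrt1 promoter peak (chr15:76522560-76524060) had 106.7 and 97.6, then 71.8 and 60.7, then 187.6 and 110.9, and was not called at 12 h (-0.63 ± 0.27, adjusted p = 0.11; -0.20 with the GC offset, and a median of -0.38 over all promoter peaks) or 48 h (0.54 ± 0.25, adjusted p = 0.17). Its rise from 12 h to 48 h was called (1.16 ± 0.26, adjusted p = 0.004). A smaller promoter peak over the first exon (chr15:76521855-76522490) was called gained at 48 h (2.34 ± 0.64, adjusted p = 0.016), with 4.1 and 8.5, then 3.2 and 1.8, then 57.7 and 9.5. That gain rested on R1, and without it the change was 0.58 (adjusted p = 0.66).

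In the CCHC zinc finger family only St18 had peaks of its own. St18 (ENSMUSG00000033740.17, chr1:6487231-6860940, forward strand) had locus counts of 8.2 and 7.4, then 21.4 and 12.9, then 30.0 and 17.2. The values at 48 h were above those at 0 h, but the change was not called (1.55 ± 0.51, adjusted p = 0.076). It was called gained with the replicate block, with the GC offset and without 48 h R2 (adjusted p down to 0.0024), with adjusted p up to 0.41 in the other alternatives. Its 2 peaks moved at different times. The promoter peak (chr1:6486736-6487073) had 4.1 and 3.2, then 19.3 and 11, then 6.7 and 7.7, with a gain at 12 h (2.00 ± 0.64, adjusted p = 0.034) that was lost without any 1 of the 4 compared libraries (adjusted p up to 0.28). The intronic peak (chr1:6761099-6761476) had 4.1 and 4.2, then 2.1 and 1.8, then 23.3 and 9.5, and rose from 12 h to 48 h (2.93 ± 0.75, adjusted p = 0.009), whereas its change at 48 h vs 0 h was not called (1.90 ± 0.66, adjusted p = 0.0547). With TMM factors, the minimum of 10 reads, the replicate block, the GC offset or without 48 h R2 it was, and adjusted p ranged from 0.0055 to 0.37. Myt1 (ENSMUSG00000010505.16, chr2:181763332-181827797, forward strand) had no peak in its body. The single peak of its window (chr2:181837414-181839032) lay at the promoter of the neighbouring gene Pcmtd2, with 133.4 and 114.6, then 79.3 and 100.3, then 181.0 and 165.1. It was not called at 48 h vs 0 h (0.48 ± 0.22, adjusted p = 0.16), and no value of H3K27ac for Myt1 itself was obtained. For Myt1l (ENSMUSG00000061911.15, chr12:29528384-29923213, forward strand), no merged peak means no count, and the absence of the mark below the peak-calling threshold was not tested.

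A difference between the 48 h replicates ran through these regions. R1 exceeded R2 at 35 of the 53 peaks (66.0%), compared with 45.9% of all peaks, and the median log2 ratio of R1 to R2 was 0.43, compared with -0.05 over all peaks. It was larger in peaks with a GC content of at least 60%, with medians of 0.71 for 12 member peaks and 0.35 for all 9616 such peaks. In peaks of lower GC content the medians were 0.13 and -0.11. The part of GC content in the replicate difference was not tested further. Taken singly against the mean of 0 h, R1 was higher at 48 peaks and R2 at 47, both at 43. The medians were 1.20 and 0.69 on the log2 scale (scaled count plus 8). These counts and medians were not taken over all merged peaks. Without R2, more of the 53 peaks were called at 48 h vs 0 h than with all 6 libraries, and so were more of all merged peaks. Without R1, fewer of the 53 but more of all merged peaks were called.

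**Figure D4:**
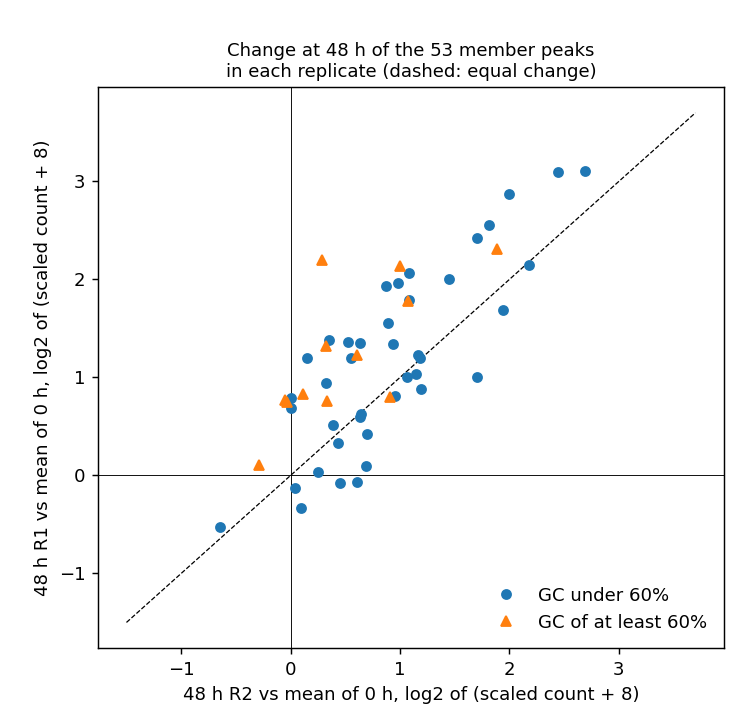
Change at 48 h of each of the 53 peaks against the mean of the 0 h libraries, log2 of (scaled count + 8), in R2 (horizontal axis) and in R1 (vertical axis), with orange triangles for peaks of at least 60% GC and a dashed line for equal change. Of the 53 points, 43 are above 0 in both replicates, a count not made over all peaks. Points above the dashed line, where R1 changed more, number 35 (66.0%; 45.9% of all peaks).

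Beside the 10 genes, related genes were counted in the same locus test. Of 7 paralogues with a peak (Ebf4, Scrt2, Snai1, Snai3, Tal1, Tal2 and Lyl1), none gained and 1 lost H3K27ac at 48 h, and their median was 0.26. The 1 lost was Scrt2, the paralogue of Scrt1, with 792.2 and 978.6 at 0 h and 540.7 and 509.9 at 48 h (-0.75 ± 0.12, adjusted p = 0.0029). The Scrt2 window held 5 peaks but no promoter peak of the gene, and whether these peaks belong to Scrt2 was not tested. Of 11 cofactors of the members, 1 gained and none was lost, with a median of 0.11. That 1 was Zfp521, which encodes a zinc finger partner of Ebf1, with 597.3 and 478.7, then 922.1 and 899.7, then 1209.1 and 1215.0 (1.17 ± 0.12 at 48 h, adjusted p = 0.00019). Rcor2, a CoREST-type corepressor, and Zfp423, the close relative of Zfp521, were not called, with 0.30 ± 0.11 (adjusted p = 0.13) for Rcor2 and 0.24 ± 0.16 (adjusted p = 0.39) for Zfp423. Of 18 other neuronal differentiation factors with a peak 6 gained and 1 was lost at 48 h, with a median of 0.82. Onecut1 rose from 59.5 and 50.9 to 298.7 and 224.4 (2.23 ± 0.22, adjusted p = 0.00017), and the bHLH gene Neurod4 from 43.1 and 28.7 to 206.5 and 236.5 (2.62 ± 0.26, adjusted p = 0.0002). Hes6 rose from 271.9 and 224.0 to 844.9 and 590.7 (1.53 ± 0.18, adjusted p = 0.00042). The loss was at Rest, the repressor of neuronal genes in non-neuronal cells, from 3506.6 and 3780.6 to 1986.3 and 2193.5 (-0.80 ± 0.09, adjusted p = 0.00042).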

How the data were processed

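H3K27ac ChIP-seq of A2Lox ES cells (A2lox-NeuroD1) at 0, 12 and 48 h was analysed from the read counts per merged peak that the authors deposited without scaling. Per the methods and the submitters' processing notes, the authors aligned reads to mm10 with Bowtie2 (local mode), used SAMtools 0.1.19, called peaks with MACS2 against Input, merged them over samples and counted reads with QuasR. Merging fixes which regions have a count at all. Time points came from the labels, and the Input library was not used here.

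Members, gene lists and tests were chosen with earlier results of these data known. For each gene, the peaks to describe were its largest promoter peak, its highest peak and that with the smallest p at 48 h vs 0 h; further member peaks were chosen after their values were seen. Of the other lists, up to 4 genes with the smallest p are named.

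Counts were tested in R 4.3.3 by the quasi-likelihood functions of edgeR 4.0.16 (1 model of 6 libraries, time as factor, library totals of 6283103 to 8112895 reads as offset, 3 residual degrees of freedom, Benjamini-Hochberg threshold 0.05, no filter). Locus counts summed the peaks in each protein-coding gene body plus 10 kb, so neighbouring genes can share peaks. Counting intervals are exact and, like the floor of 3 reads, cover counting error only. The scripts were tested on simulated data. Alternatives were TMM factors, DESeq2 1.42.0, at least 10 reads in 2 libraries, a replicate block, the 4 libraries compared, a GC offset (lowess, span 0.3), each library left out, gene bodies alone, loci without promoter peaks of other genes, and E-boxes over whole peaks. E-boxes were read with pysam 0.24.0, and 58 peaks off the reference chromosomes were left out there. Figures used matplotlib 3.10.9.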

Additional observations from a re-analysis of the deposited data

Results flagged for a closer look

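Within the regions described, these values stood out because the change at 48 h differed from the change at 12 h by the direct test of 48 h against 12 h (edgeR's quasi-likelihood test, Benjamini-Hochberg adjusted p under 0.05). In that comparison the median over all promoter peaks was 0.44, with 27.4% gained, and over all other peaks -0.20, with 5.3% gained. At peaks, the log2 fold changes from 12 h to 48 h were 1.11 at the Nhlh1 promoter peak and 0.91 at the Nhlh1 upstream peak, 0.99 at the Nhlh2 promoter peak, 1.19 at the Ebf1 promoter peak and 1.02 at the Ebf1 intronic peak, and 1.24 at the Ebf2 promoter peak. They were 1.23 and 1.53 at the pair of Ebf3 intronic peaks, 0.94 at the peak at the Pcmtd2 promoter beside Myt1, 2.93 at the St18 intronic peak and 0.97 at the Insm1 exon peak. At Scrt1 they were 0.69 at the peak at the Dgat1 promoter, 3.64 at the first-exon peak and 1.16 at the promoter peak. The call at the Dgat1 promoter (adjusted p = 0.0496) was lost in 9 of 12 alternatives, and those at the Nhlh2 and Ebf1 promoter peaks in 7 of 12 each. Over loci, the values were 1.10 for Nhlh1, 0.97 for Nhlh2, 0.91 for Ebf2, 0.82 for Ebf3, 0.94 for the Myt1 window, which is the Pcmtd2 promoter peak alone, 0.74 for Insm1 and 1.04 for Scrt1, beside a median of 0.32 over all loci in that comparison. With TMM factors the calls for Nhlh2 (0.67) and Ebf3 (0.54) were lost. No group had the 4 or more samples needed to look for a single sample far from the others.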

How the results depend on the processing

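Of the values named for peaks and loci, those called at 48 h vs 0 h held their call in 199 of 216 alternatives, those at 12 h vs 0 h in 135 of 177 and those at 48 h vs 12 h in 189 of 260, and none of the called values changed sign. The named peaks were picked in part by the smallest p at 48 h vs 0 h. The share of calls held in that comparison is therefore favoured by the choice and cannot be set against the other shares. With DESeq2, 7 member peaks were called at 12 h vs 0 h (16 with edgeR) and 9 at 48 h vs 12 h (25). It called 2 member loci at 48 h vs 12 h (7), beside 3074 of all loci (7420). Of all peaks it called 5293, 4622 and 7465 at 12 h vs 0 h, 48 h vs 0 h and 48 h vs 12 h (10666, 9365 and 12796). With only the 4 libraries compared, 16 member peaks were called at 48 h vs 12 h and 8 member loci at 12 h vs 0 h (5). Over all features this gave 21403 peaks and 10179 loci at 12 h vs 0 h, and 8368 peaks between 12 h and 48 h. Leaving out 1 library gave 3 to 23 member peaks at 12 h vs 0 h, 12 to 37 at 48 h vs 0 h and 1 to 30 between 12 h and 48 h. For member loci it gave 0 to 9, 3 to 9 and 0 to 8, and for all peaks 1559 to 21376, 1967 to 15737 and 1742 to 24591. Apart from the smaller number of libraries in such fits, the cause was not tested. CAGCTG occurred in 21 member peaks over the whole peak and in 13 near the centre.

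Replicate numbers did not pair the samples (correlations of deviations of -0.036, -0.05 and 0.078). With the replicate block, 19, 32 and 24 member peaks and 6, 7 and 7 member loci were called at 12 h vs 0 h, 48 h vs 0 h and 48 h vs 12 h. The same fits called 10923, 9716 and 13109 of all 66841 peaks, and 6048, 1990 and 7378 of all 16152 loci. The member locus added at 12 h vs 0 h was a loss at Scrt1.

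Signs turned only in values that were not called. Leaving out 1 library gave -0.81 to 0.05 for the Ebf1 promoter peak at 12 h vs 0 h. It gave, at 48 h vs 0 h, -0.13 to 0.06 for the Ebf1 peak 144 kb into the gene, -0.31 to 0.12 for the Scrt1 peak at Dgat1 and -0.08 to 0.73 for the Scrt1 locus. The GC offset gave -0.01 and -0.23 for the Ebf1 peaks 79.6 and 144 kb into the gene at 12 h vs 0 h, 0.14 for the Scrt1 peak at Dgat1 at 48 h vs 0 h, and 0.11 for the Ebf1 peak 144 kb in at 48 h vs 12 h. TMM factors and DESeq2 both gave 0.03 for that Ebf1 peak at 48 h vs 0 h, and -0.01 and -0.03 for the Ebf1 locus at 48 h vs 12 h. The gene body alone gave -1.03 for the St18 locus at 12 h vs 0 h. With 2 libraries per time point and few reads in the small peaks, a change that was not called is not shown to be absent.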
